A study of Macaca fascicularis with 3 samples.

Results

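miR-103 and miR-107 are a small family of microRNAs (miRNAs), short RNAs that guide Argonaute proteins to messenger RNAs and lower their output. Their levels were described here in the kidney cortex of the cynomolgus monkey (Macaca fascicularis). The members were the 4 mature names of the family in a table of 432 mature miRNAs, namely mfa-miR-103-3p, mfa-miR-107-3p, mfa-miR-103-5p and mfa-miR-107-5p, written below without the species prefix. They were chosen by name with earlier results of these data known, and the values behind that choice were the counts of the 3p names, far lower in 1 library than in the others. The levels and the differences between animals below are therefore a description without a test. Small RNA was sequenced from the cortex of 3 naïve animals aged 2 to 3 years, with 1 library per animal, and these form a single group with no treatment and no other tissue beside it. The tissue was not sorted into cell types.

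Each hairpin precursor is cut into a 5p and a 3p arm, of which usually 1 is kept as the guide and the other is mostly degraded. In this family the 3p arm is the guide. The genes lie in introns of the pantothenate kinase genes, whose enzymes start the synthesis of coenzyme A, and miR-103 is made from more than 1 gene. The guides are known for lowering insulin sensitivity in liver and fat through caveolin-1, and for targeting the messenger RNA of Dicer, the enzyme that frees mature miRNAs from their precursors. They belong with miR-15, miR-16, miR-195, miR-424, miR-497 and miR-503 to 1 group, called here the group of miR-15 and miR-107, whose members share a short stretch of bases near the 5′ end.

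The names need care. The authors' table pairs most names with a human miRNA, and miR-103-3p and miR-107-3p are both paired with human miR-103a-3p. miR-107-5p is paired with human miR-103a-2-5p, and miR-103-5p has no human partner in the table. None of the 432 names (0) is paired with human miR-107. The same table puts let-7d with human let-7a-5p and miR-211 with human miR-204-5p, so a pairing there does not always keep the miRNA's own name. In all, 13 human miRNAs are each paired with 2 of the monkey names. miR-103 and miR-107 guides are near-identical in mammals, and how reads matching both were counted is not given in the sources used here. The division of counts between the 3p names is therefore uncertain, and reads counted under both names would enter their sum more than once.

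Summed over the listed names, the counts came to 4305977 for animal 1, 4707892 for animal 2 and 3957188 for animal 3. Levels are given as CPM, counts per 1000000, scaled between libraries by the trimmed mean of M values (TMM). A limit of 3 counts corresponded to between 0.606 and 0.806 CPM. The tissue label was checked against tubule miRNAs (miR-192, miR-194 and miR-204), whose summed level was between 56416 and 58907 CPM in the 3 libraries. The liver miRNA miR-122a-5p was between 4.30 and 8.73 CPM and the neuronal miR-9 and miR-124 names together between 113 and 125 CPM. The library of animal 3 stood apart from the others. Among 391 names with a mean count of at least 10, 26 (6.65%) lay more than 4-fold below both other animals in the library of animal 3. The same count was 3 (0.767%) for animal 1 and 0 for animal 2. Every result for the 3p names below touches this library, so their levels, shares and ratios are also given for animals 1 and 2.

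The guide strands were abundant in animals 1 and 2 and about 10-fold lower in animal 3. miR-103-3p had 45567 counts in animal 1, 66947 in animal 2 and 5394 in animal 3. This corresponded to 10468, 13519 and 1449 CPM, with a mean of 8479 CPM ± 6276 (SD, n = 3). Animals 1 and 2 lay close together and animal 3 lay below both. miR-103-3p made up 1.06% of the counts of animal 1 (Wilson 95% limits 1.05 and 1.07), 1.42% of animal 2 (1.41 and 1.43) and 0.136% of animal 3 (0.133 and 0.140). By the order of counts within a library, which does not depend on scaling between libraries, it was the 24th miRNA in animal 1, the 20th in animal 2 and the 70th in animal 3. The mean of animals 1 and 2 was 11993 CPM ± 2157 (SD, n = 2), which was 8.27-fold the level of animal 3.

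miR-107-3p, the other guide, had 25493, 31656 and 1886 counts in animals 1, 2 and 3. Its levels were 5857, 6392 and 507 CPM, with a mean of 4252 CPM ± 3254 (SD, n = 3). Animals 1 and 2 differed by 1.09-fold, and animal 3 was again the low one. Its share was 0.592% of the counts of animal 1 (Wilson 95% limits 0.585 and 0.599), 0.672% of animal 2 (0.665 and 0.680) and 0.0477% of animal 3 (0.0456 and 0.0499). It ranked 34th, 31st and 104th within the libraries of animals 1, 2 and 3. The mean of animals 1 and 2, 6124 CPM ± 379 (SD, n = 2), was 12.1-fold that of animal 3. In bulk tissue, fewer cells carrying a miRNA and less of it per cell cannot be told apart, and with 1 library per animal neither can the animal and its library.

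The 5p arms did not share this pattern. miR-107-5p had 360 counts in animal 1, 514 in animal 2 and 490 in animal 3, or 82.7, 104 and 132 CPM. Its mean was 106 CPM ± 24.6 (SD, n = 3), and animal 3 was the highest of the 3. miR-103-5p was near the lower end of the table, with 20, 22 and 24 counts and 4.59, 4.44 and 6.45 CPM in animals 1, 2 and 3. Its mean was 5.16 CPM ± 1.12 (SD, n = 3). With so few counts, its shares of the 3 libraries could not be told apart. They were 0.000464% in animal 1 (Wilson 95% limits 0.000301 and 0.000717), 0.000467% in animal 2 (0.000309 and 0.000708) and 0.000606% in animal 3 (0.000408 and 0.000902). For miR-107-5p the interval of animal 1 (0.00754% to 0.00927%) lay below that of animal 2 (0.0100% to 0.0119%), and those of animals 2 and 3 (0.0113% to 0.0135%) overlapped. The highest over the lowest animal was 1.59-fold for miR-107-5p and 1.45-fold for miR-103-5p. Intervals cover counting error at most. Reads without molecular identifiers are not independent molecules, so the intervals are likely too narrow even for that.

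**Figure D1:**
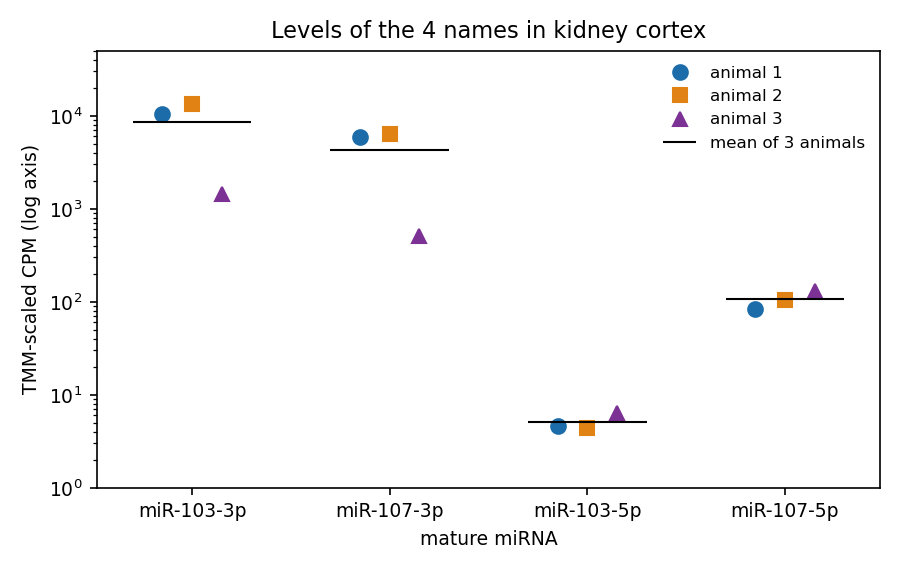
Level of each mature miRNA (vertical axis, TMM-scaled CPM on a log axis) in animal 1 (circle), animal 2 (square) and animal 3 (triangle), with a line at the mean of the 3 animals. For miR-103-3p and miR-107-3p the triangle lies far below the other points (1449 and 507 CPM), and for both 5p arms it is the highest point (6.45 and 132 CPM).

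All 4 names passed the minimum mean count of 10. The spans of miR-103-3p (9.33-fold) and miR-107-3p (12.6-fold) exceeded 2-fold and those of the 5p arms did not, which makes 2 of 4 members. Over all 391 miRNAs tested, 39.9% spanned more than 2-fold. The 3p names were also more than 4-fold below both other animals in animal 3, as were 6.65% of the 391. Since the family was proposed with these values known, nothing is read from either count. On the log2(CPM + 1) scale, the deviation of animal 3 from the mean of the other animals was -3.04 for miR-103-3p and -3.59 for miR-107-3p. It was 0.43 for miR-103-5p and 0.50 for miR-107-5p, and its median over the 391 miRNAs was -0.0082. Ordered from the lowest, miR-107-3p was 6th and miR-103-3p 10th of the 391. Under total counts or DESeq2 size factors the deviation stayed between -3.17 and -2.99 for miR-103-3p and between -3.72 and -3.54 for miR-107-3p.

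The 26 miRNAs more than 4-fold low in animal 3 differed widely in level. Their mean level in animals 1 and 2 was highest for miR-23b-3p (18831 CPM), a member of the miR-23/27/24 clusters, and miR-103-3p came 2nd with 11993 CPM. miR-23a-3p followed with 10208 CPM and miR-107-3p was 4th with 6124 CPM. The remaining 22 had 2008 CPM or less. The 3p names of the family made up 33.2% and 36.6% of the counts of these 26 miRNAs in animals 1 and 2 and 23.7% in animal 3. The 26 together took 4.97% and 5.73% of the counts in animals 1 and 2 and 0.777% in animal 3. Since these 26 were picked for being low in animal 3, the fall of their share there follows from the choice. Both 3p names were known to be low there too, so nothing is read from their part in the sum either.

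The balance of arms within a hairpin is a ratio inside 1 library, so it does not depend on scaling between libraries. In the miR-107 hairpin, 5p counts were 1.39% of both arms in animal 1 (Wilson 95% limits 1.26 and 1.54), 1.60% in animal 2 (1.47 and 1.74) and 20.6% in animal 3 (19.0 and 22.3). The first 2 animals had overlapping intervals and animal 3 lay far above them. In the miR-103 hairpin the 5p share was 0.0439% in animal 1 (0.0284 and 0.0678), 0.0329% in animal 2 (0.0217 and 0.0497) and 0.443% in animal 3 (0.298 and 0.658). The 3p arm remained the larger in every library. Its counts were 70.8, 61.6 and 3.85 times those of the 5p arm for miR-107 in animals 1, 2 and 3, and 2278, 3043 and 225 times for miR-103. Because miR-103-3p can come from more than 1 gene and the names of this family overlap in their human partners, the arms paired by name may not come from the same hairpin.

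**Figure D2:**
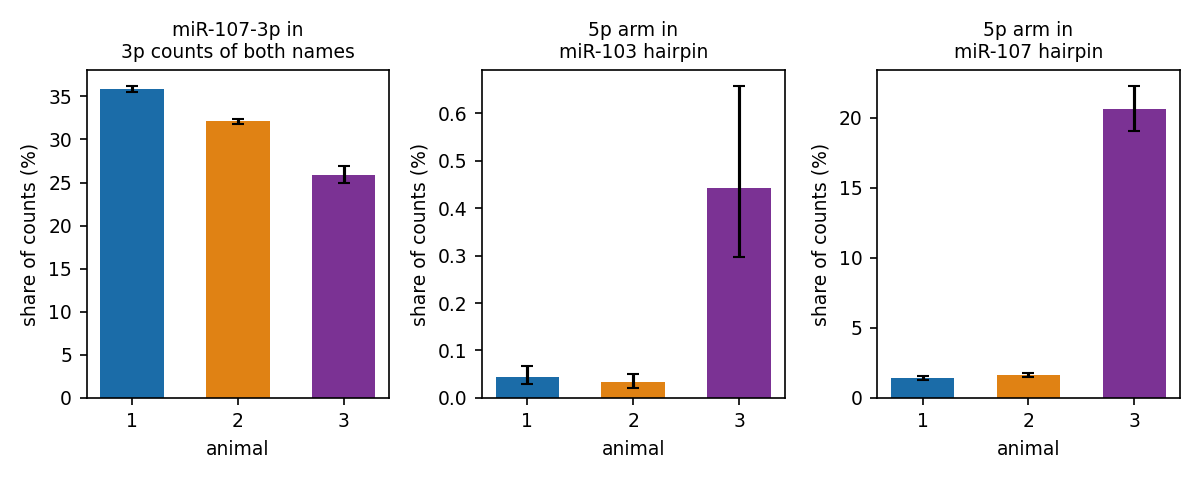
Shares of counts in percent (vertical axes, each with its own scale) by animal: miR-107-3p among the 3p counts of both names (left), and the 5p arm among all counts of the miR-103 hairpin (middle) and of the miR-107 hairpin (right), with Wilson 95% confidence intervals as error bars. In animal 3 the 5p share reached 20.6% for miR-107 and 0.443% for miR-103, and the share of miR-107-3p was the lowest of the 3 at 25.9%.

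A like ratio was then taken over other hairpins as well, from log2(CPM + 1) values. Through the added 1 CPM it depends on scaling between libraries, mostly where an arm has few counts. In 104 hairpins with both arms listed and a mean count of at least 10 on each arm, the log2 ratio of 3p over 5p in animal 3 was compared with its mean in animals 1 and 2. The difference was -4.09 for miR-107 and -3.47 for miR-103, the 2nd and 4th lowest of the 104, beside a median of -0.047. Most of each difference was the low 3p arm, for which the family was chosen, so nothing is read from these places. A ratio at least 4-fold lower was found in 12 hairpins (11.5%) in animal 3, miR-107 and miR-103 among them, and a ratio at least 4-fold higher in 3. When animal 1 or animal 2 was set against the others in the same way, 2 hairpins each (1.92%) were at least 4-fold lower. The others then include animal 3, so this share is not free of that library. Neighbours among the lowest hairpins reached a low ratio in animal 3 differently. The miR-143 hairpin, from a smooth muscle cluster, was lowest at -4.22 through its 5p arm, which had 9, 5 and 179 counts in animals 1, 2 and 3. The miR-204 hairpin, abundant in kidney tubules, lay at -4.02 with a low 3p arm (-4.10) and a 5p arm near the other animals (-0.08). As in miR-107 and miR-103 the 3p arm was the low one. In miR-204, however, it was the minor arm, with 437, 529 and 19 counts in animals 1, 2 and 3.

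**Figure D3:**
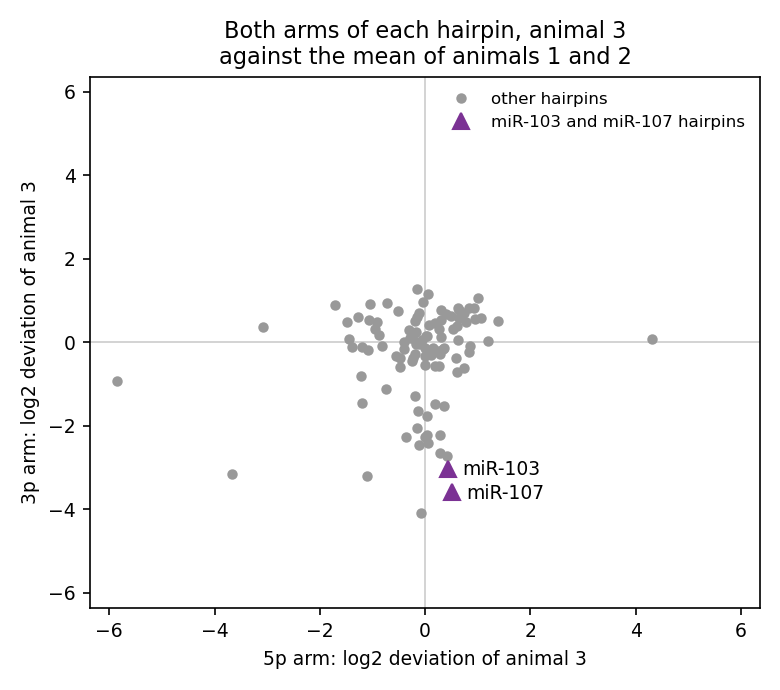
Each point is 1 of 104 hairpins, placed by the log2 deviation of animal 3 from the mean of animals 1 and 2 for its 5p arm (horizontal) and its 3p arm (vertical), on log2(TMM-scaled CPM + 1). miR-103 (-3.04 on 3p, 0.43 on 5p) and miR-107 (-3.59 on 3p, 0.50 on 5p), drawn as triangles, lie in a group of points low on the 3p axis and close to 0 on the 5p axis.

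Within each animal miR-103-3p exceeded miR-107-3p, by 1.79-fold in animal 1, 2.11-fold in animal 2 and 2.86-fold in animal 3. The mean log2 difference was 1.14 ± 0.34 (SD, n = 3), with the same order in 3 of 3 animals, and 0.96 over animals 1 and 2. An exact permutation test, two-sided and flipping the sign of each animal, returns p = 0.25 whenever 3 animals keep 1 order. It cannot go lower or pass 0.05, and the counts were known beforehand, so it adds nothing to the order itself. The difference was 0.84 in animal 1, 1.08 in animal 2 and 1.51 in animal 3 on the log2 scale. As a share, miR-107-3p made up 35.9% of the summed 3p counts in animal 1 (Wilson 95% limits 35.5 and 36.2), 32.1% in animal 2 (31.8 and 32.4) and 25.9% in animal 3 (24.9 and 26.9). The intervals did not overlap. They treat reads as independent and as assigned to the right name, so this does not show a difference beyond counting error. The mean share was 31.3% ± 5.03 (SD, n = 3), and 34.0% without animal 3. For the 5p arms the order was the opposite, and miR-107-5p made up 94.7%, 95.9% and 95.3% of the summed 5p counts in animals 1, 2 and 3.

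With animal 3 included, the ratio of the 3p names moved less than their levels. Its range over the animals was 0.68 on the log2 scale, while the names themselves deviated by -3.04 and -3.59 in animal 3. Between animals 1 and 2 this did not hold, since the ratio moved by 0.24, miR-103-3p by 0.37 and miR-107-3p by 0.13. Both names were proposed for their low counts in animal 3 and may share reads. The smaller move of their ratio with animal 3 included therefore follows largely from that choice, and nothing is read from it. Of the 13 pairs of names with the same human partner, 10 had different counts in their members and a mean count of at least 10 in each. Over these 10 pairs the range of the log2 ratio had a median of 0.38 and ran from 0.064 for miR-128a-3p with miR-128b-3p to 1.40 for miR-513b with miR-513a. miR-103-3p with miR-107-3p was the 7th from the smallest.

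The place of the family among neighbours in level also depended on the animal. By mean level, miR-16-5p (8519 CPM ± 458, SD, n = 3) stood just above miR-103-3p and miR-24-3p (7923 CPM ± 1911) just below it. In animals 1 and 2 miR-103-3p exceeded both, and in animal 3 miR-16-5p was 5.53-fold above it. miR-107-3p lay between miR-192-5p (4304 CPM ± 568) and miR-148a-3p (4222 CPM ± 642). In animal 3 miR-192-5p, a tubule miRNA, was 9.15-fold above miR-107-3p, although in animals 1 and 2 it was below it. None of these 4 neighbouring pairs kept its order in all 3 animals. miR-107-5p lay between miR-369-3p (110 CPM ± 52.3) and let-7b-3p (104 CPM ± 10.3), and these pairs also changed order. The same held for miR-103-5p between miR-496 (5.22 CPM ± 0.912) and miR-507 (5.11 CPM ± 8.84).

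The rest of the group of miR-15 and miR-107 was then set beside the family, from a list chosen with earlier results known. It held 7 names, all above the minimum count, and miR-646 was not among the names counted. Their summed level was 25188, 30520 and 32019 CPM in animals 1, 2 and 3, against 16325, 19911 and 1956 CPM for the sum of miR-103-3p and miR-107-3p. The 3p names of the family thus held 39.3% of the group's counts in animal 1 (Wilson 95% limits 39.1 and 39.5), 39.5% in animal 2 (39.3 and 39.7) and 5.76% in animal 3 (5.63 and 5.89). The first 2 shares agree within their intervals.

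None of the 7 other names (0) was more than 4-fold low in animal 3, beside 6.65% of all 391 miRNAs, and 2 of 7 spanned more than 2-fold, beside 39.9%. With 7 names neither count can be read as a difference from the rest. In animal 3, 4 of the 7 were below both other animals and 3 above both. The same was not counted over all miRNAs, so nothing is read from this. miR-424-5p, which is made with miR-503 from a cluster on the X chromosome, had 6603, 12019 and 15521 CPM in animals 1, 2 and 3. miR-16-5p, the widely expressed cell cycle regulator, had 8914, 8627 and 8018 CPM, and its cluster partner miR-15a-5p had 4466, 4395 and 3712 CPM. The lowest deviation of animal 3 among the 7 was -0.88, for miR-15b-5p with 2059, 2616 and 1261 CPM, and the highest was 0.80, for miR-424-5p. Their median was -0.13, beside -0.0082 over all miRNAs.

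**Figure D4:**
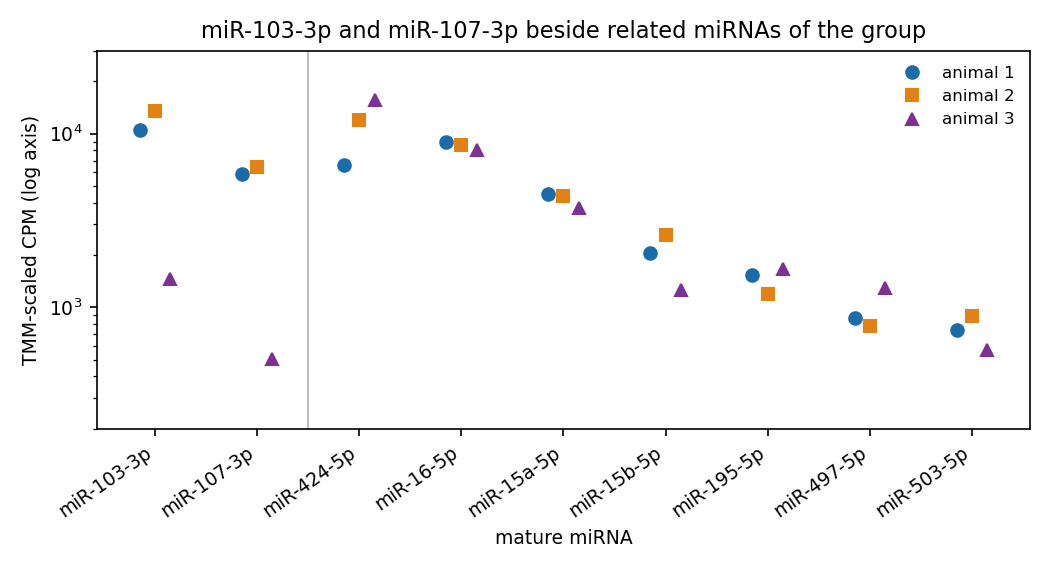
Level of miR-103-3p and miR-107-3p (left of the line) and of the 7 other listed names of the group of miR-15 and miR-107 (right), as TMM-scaled CPM on a log axis, for animals 1 (circle), 2 (square) and 3 (triangle). The triangles of the family lie at 1449 and 507 CPM, far under their other points, whereas those of miR-16-5p (8018 CPM) and miR-15a-5p (3712 CPM) lie close to them.

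miRNAs tied to insulin, lipid or glucose metabolism formed another list of 7 names, with miR-802 not among the names counted. In animal 3, 0 of the 7 were more than 4-fold low, beside 6.65% of all miRNAs, which for so short a list is no difference that can be read. A span of more than 2-fold was found in 4 of the 7, beside 39.9% of all. The highest in level was miR-378a, from an intron of the coactivator gene PPARGC1B, with 1726, 1991 and 1952 CPM in animals 1, 2 and 3. miR-378d, a related name, had 654, 734 and 2293 CPM and was highest in animal 3. miR-33b-5p, made from an intron of the sterol regulator gene SREBF1, had 175, 92.9 and 113 CPM. The median deviation of animal 3 over the list was -0.27.

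The miR-200 family keeps epithelial cells in their state and has been placed downstream of miR-103 and miR-107 through Dicer. It was represented by 6 names, none of them of miR-200b or miR-141. Of these, 4 passed the minimum count and 0 of these 4 were more than 4-fold low in animal 3, beside 6.65% of all miRNAs, from which nothing can be read at this length. A span of more than 2-fold was found in 2 of the 4, beside 39.9%. miR-200a-3p had 11807, 9595 and 9108 CPM and miR-429-3p 8821, 9973 and 8109 CPM in animals 1, 2 and 3. miR-200a-5p had 43.6, 57.8 and 89.8 CPM. The median deviation of animal 3 over the 4 names was -0.22.

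Markers of other cells were compared across the same libraries. The vascular list (miR-126, miR-143 and miR-145) summed to between 68170 and 90587 CPM over 5 names, with the highest value in animal 3. The largest part of that sum in each library was miR-126, the endothelial miRNA. It had 49305, 37953 and 43362 CPM in animals 1, 2 and 3 and was highest in animal 1. miR-145-5p had 19578, 25230 and 40398 CPM. It was 1 of the 2 names of the 5 that were above both other animals in animal 3. The erythroid list (miR-451, miR-144 and miR-486) summed to between 4158 and 6130 CPM over 4 names, also highest in animal 3. Here 2 of the 4 names were above both other animals in animal 3, and miR-144, with 626, 403 and 346 CPM, was lowest there. How often all miRNAs lie above both other animals in animal 3 was not counted, so nothing is read from these counts. The leucocyte list (miR-223, miR-142 and miR-150) lay between 1603 and 1642 CPM over 4 names. None of these lists was at 0 in any library. The part of the makeup of cells in the low 3p names was not tested.

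The profiles most like that of miR-103-3p over the 3 animals were found by the Euclidean distance of the centred log2(CPM + 1) values. The candidates were the names with a mean count of at least 100, and 3 points make this a coarse measure. miR-107-3p was the 2nd nearest of 258 at a distance of 0.48. Of the 256 names outside the family, the nearest were miR-500a-3p (0.31), miR-23b-3p (0.50), miR-500a-5p (0.52), miR-130a-3p (0.53), miR-361-5p (0.53), miR-10b-3p (0.70), miR-320a (0.71) and miR-23a-3p (0.73). The median distance of the 256 was 2.52, and the 5p arms of the family were at 2.85 for miR-103-5p and 2.89 for miR-107-5p.

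All 8 were low in animal 3. For miR-23b-3p the counts were 78233, 97506 and 12721 in animals 1, 2 and 3. For miR-23a-3p they were 44946, 49971 and 8209. miR-361-5p was at 3687, 3237 and 325 counts and miR-130a-3p at 804, 1360 and 154. The miR-500a arms, from an X-chromosome cluster, had 793, 1557 and 97 counts on 3p and 781, 1215 and 58 on 5p. Both arms of that hairpin were thus low together, unlike those of the family. For miR-23b, miR-130a, miR-361 and miR-10b the opposite arm deviated by -0.12, 0.06, 0.36 and 0.29 in animal 3, and these hairpins had 1 low arm as miR-103 and miR-107 did. In miR-10b the low arm was the minor arm of its hairpin in every animal, unlike in miR-103 and miR-107. The distances rest on the same values that brought the family forward and on animal 3 in particular, so the likeness is a description.

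**Figure D5:**
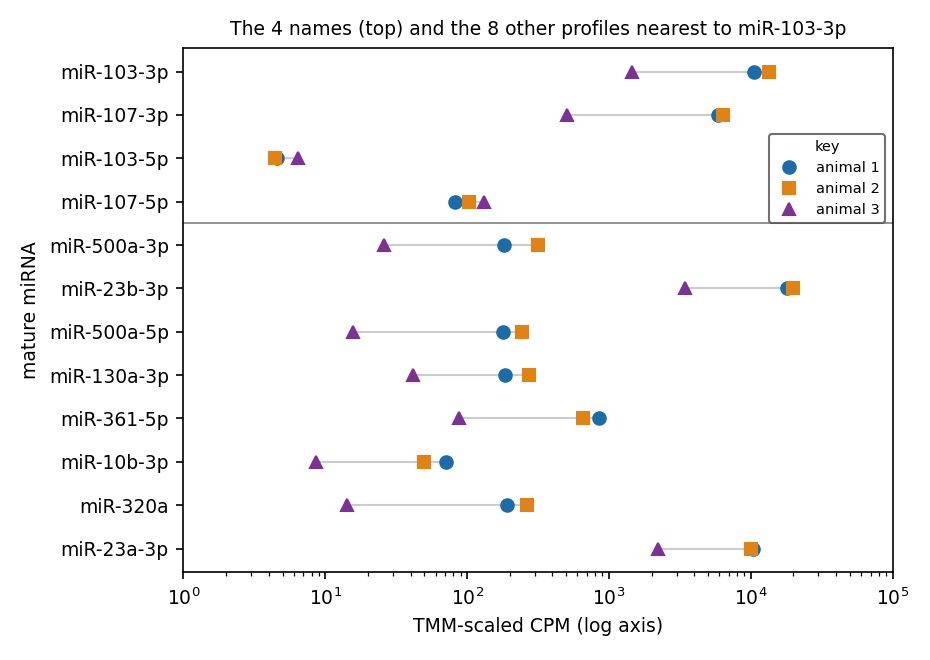
TMM-scaled CPM (horizontal, log axis) of the 4 names of the family (above the line) and of the 8 other miRNAs with the profile nearest to miR-103-3p (below it), for animals 1 (circle), 2 (square) and 3 (triangle). In these 8 and in both 3p names the triangle is the lowest point, and in miR-103-5p and miR-107-5p it is the highest.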

How the data were processed

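Small RNA of 3 kidney cortex samples, which the labels put in 1 group, was sequenced by the submitters. Per the labels' protocols, 25 to 30 mg of frozen tissue, 5 µg of total RNA and 12 ng of enriched small RNA were used per library. Per the file headers, the deposited raw counts are reads mapped to M. fascicularis miRNAs with 0 mismatches, and miRNAs with at least 15 reads were kept. The smallest sum over the libraries was 15. The authors' normalized signal was made with edgeR per the file headers. All its values (100%) equalled the raw count times 1 factor per library (0.989, 0.951 and 1.06) within 0.15 units plus 0.1%, so it is not scaled for library size. It was used only as an alternative and for the human partner names, given for 405 of 432 names. The aligner, the miRNA reference and the treatment of reads matching several names are not given in the sources used here. Reads with a sequencing error are left out by an exact match.

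CPM were computed from raw counts over totals times TMM factors (edgeR 4.0.16 in R 4.3.3, over all 432 names), which were 1.01, 1.05 and 0.940. Values entered log2 with a pseudocount of 1 CPM. Deviations are 1 animal minus the mean of the others. Their calculation was checked on simulated counts with as many miRNAs raised as lowered, for names with a mean count of at least 100. That simulation held counting error only and no other variation between animals. It therefore does not show how sure the deviations are here, and names with fewer counts, such as miR-103-5p, were outside it. Shares carry Wilson 95% intervals. The members and lists were chosen with earlier results of these data known. Named miRNAs are the 4 members, their neighbours in mean level, the 8 nearest profiles with a mean count of at least 100, and the 3 highest of each list. miR-15b-5p, miR-143-5p, the miR-143 and miR-204 hairpins and the pairs with the same human partner were named after their values were seen. Alternatives were other scalings, pseudocounts, minimum counts and leaving out an animal. Columns of sums and means were left out, and the files held 0 other per-sample columns. Mature sequences and genome positions were not used here.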

Additional observations from a re-analysis of the deposited data

How the results depend on the processing

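The alternatives gave 78 recalculated values of 14 results. A turn of direction could be scored only for the deviations of the 3p names and for the log2 difference between them. None of these (0) turned. For the mean levels, the authors' signal as CPM repeats the library totals by construction and adds no check. Of all values, 64 stayed within the SD between animals or, for counts of miRNAs, within 1.5 times. For the log2 difference between the 3p names, only the sign had to be kept. For the levels and for the arm shares that SD holds the gap of animal 3 itself, so a move within it says little. The mean level was between 5698 and 12367 CPM for miR-103-3p and between 3036 and 6315 CPM for miR-107-3p with 1 animal left out, the highest without animal 3. Without animal 3 the mean 5p share was 0.0384% for the miR-103 hairpin and 1.5% for miR-107, against 0.173% and 7.87% with it.

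For the deviations of animal 3 the limit was the SD between animals 1 and 2. miR-107-3p lay at -3.72 with library totals and -3.78 with the authors' signal, and between -3.65 and -3.45 with animal 1 or 2 left out. miR-103-5p lay at 0.32 with library totals, 0.47 with DESeq2 size factors and 0.27 with the authors' signal, at 0.47 and 0.27 with pseudocounts of 0.5 and 5 CPM, and between 0.45 and 0.47 with animal 1 or 2 left out. miR-107-5p lay between 0.34 and 0.74 with animal 1 or 2 left out. The cause was not tested.

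A minimum mean count of 100 left 82 miRNAs spanning more than 2-fold and 17 more than 4-fold low in animal 3. Fewer miRNAs were tested there and the shares were not computed, so these counts are not set against those at the lower minimum. Leaving out 1 animal gave between 35 (without animal 3) and 125 spanning more than 2-fold, with 96 without animal 1, and between 29 and 36 more than 4-fold low. The span then covers only the remaining animals, and animal 3 is compared with 1 other animal. These counts therefore follow another criterion than those over all 3 animals. The planned description of runs of equal bases in the mature sequences was not run, because no sequences were used. No paired analysis was possible because all 3 libraries belong to 1 group, so no groups could be paired by animal. Names were compared within animals. Counting error limits miR-103-5p most, with at most 24 counts in a library.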
